A study of Homo sapiens with 6 samples.

Results

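The 10 genes followed here were the transcription factors ATF4, CEBPG, DDIT3, ATF5, ATF3 and JDP2, and the effectors TRIB3, CHAC1, DDIT4 and SESN2 of the ATF4 stress response. They were picked by symbol from a table of 16315 genes, and all 10 were present and passed the filter on low counts that left 13841 genes for testing. F36P is an erythroid leukaemia cell line that needs a cytokine to grow. The sgHDAC7 group carried a CRISPR guide against HDAC7, a class IIa histone deacetylase, and is labelled as an HDAC7 knockout; the study asked what HDAC7 does in erythroid differentiation. The sgNT group carried a non-targeting guide and is labelled WT. Both groups were transduced and then kept for 4 days in puromycin at 1 µg/ml, so all cells had been through transduction and drug selection, and untransduced cells are not analysed here. Each group had 3 libraries, numbered 1 to 3 and labelled as biological replicates, and the labels do not say whether they were grown apart. P-values therefore measure the spread between these libraries, which may be partly technical. The labels do not call the cells clones. The 10 genes were chosen with results of the sgHDAC7 against sgNT comparison already known, so their differences in it are given as a description and not as a test. That replicate 1 stands apart was also known from earlier results, so differences between replicates are likewise a description.

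ATF4 is the central transcription factor of the integrated stress response. Several kinases that sense amino acid lack, haem lack, double-stranded RNA or unfolded protein in the endoplasmic reticulum phosphorylate the initiation factor eIF2, which slows general translation but favours translation of ATF4 through short upstream reading frames in its messenger. ATF4 protein then pairs with other basic leucine zipper (bZIP) proteins, such as CEBPG, and induces genes for amino acid supply, further factors (ATF3, DDIT3, JDP2, ATF5) and brakes (TRIB3, DDIT4, SESN2). Because ATF4 is controlled mainly at translation, its messenger level does not give its protein level. In red cell precursors the haem-sensing kinase of this pathway balances globin synthesis against haem supply.

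The DNA letters bound by ATF4 with a C/EBP partner are shown first, because most of the 10 genes shared one pattern over the libraries. The letters searched were TGATGNAA, the core of the C/EBP-ATF response element, on both strands of RefSeq promoter windows (GRCh38.p14) of 300 bases, 250 before and 50 after each start, with 1 to 3 windows for each of the 10 genes. They occurred in 4 of the 10 genes and in 4.46% of the 27305 genes of the table of windows. The 10 genes had 20 windows and the 27305 genes 35116, so the 10 had more windows per gene and the shares are not strictly alike. The 10 were also picked as genes of the ATF4 response, so nothing is read from this count. Each line below is 30 bases, 5′ to 3′ on the gene's strand, with the matched letters in capitals. In CHAC1 the match is on the opposite strand and so reads as its reverse complement.
CHAC1 (chr15:40953251-40953280, plus strand, 209 bases before the start): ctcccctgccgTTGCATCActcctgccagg
JDP2 (chr14:75427995-75428024, plus strand, 16 bases before a start): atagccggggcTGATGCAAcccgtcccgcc
CEBPG (chr19:33374060-33374089, plus strand, 42 bases before a start): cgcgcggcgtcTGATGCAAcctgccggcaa
ATF3 (chr1:212565205-212565234, plus strand, 191 bases before a start): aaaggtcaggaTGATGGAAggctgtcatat
A match is a description of letters and does not show binding. The windows of the other 6 genes lack these letters, which says nothing of sites elsewhere.

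DDIT4 and SESN2 had among the largest differences and no match in their windows, so 200 bases upstream of each (210 to 11 bases before the start) are printed for comparison. Capitals in DDIT4 mark ACGTG, the core of the hypoxia response element, searched on both strands and found in 24.9% of genes. No capitals stand in SESN2, where none of the motifs searched matched: TGATGNAA, ACGTG, the cyclic AMP element TGACGTCA (2.25% of genes) and the AP-1 element TGANTCA (9.37% of genes).
DDIT4 (chr10:72273714-72273913, plus strand): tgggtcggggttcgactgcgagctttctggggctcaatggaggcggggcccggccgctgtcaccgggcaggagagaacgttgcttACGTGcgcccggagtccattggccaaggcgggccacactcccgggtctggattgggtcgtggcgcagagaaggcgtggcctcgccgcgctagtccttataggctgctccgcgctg
SESN2 (chr1:28259308-28259507, plus strand): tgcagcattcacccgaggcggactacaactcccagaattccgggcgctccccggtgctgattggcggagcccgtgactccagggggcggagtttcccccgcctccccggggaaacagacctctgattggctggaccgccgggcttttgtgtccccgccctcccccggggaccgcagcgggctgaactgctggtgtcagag
The AP-1 letters matched in ATF5 and DDIT3, ACGTG in ATF4 and DDIT4, and the cyclic AMP element in 0 of the 10 genes.

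Libraries held 10039693 to 12521195 counts, and 3 counts equal 0.24 to 0.299 CPM (counts scaled to a common library size) in a library, a limit of counting error only. HDAC7 itself had 194 to 246 CPM in sgHDAC7 and 450 to 462 CPM in sgNT. These are CPM scaled by the trimmed mean of M values (TMM), the unit of every level given here unless another is named. The log2 ratio of HDAC7, sgHDAC7 over sgNT, was -1.21, -0.95 and -0.91 in the pairs of libraries numbered 1, 2 and 3. Its fall was thus largest in the replicate 1 pair, and the cause of this was not tested. On the second principal component (32.1% of the variance) the replicate 1 libraries of both guides separated from the rest. Each of the 10 genes is therefore also given by replicate, while some other genes are given over all libraries alone. All 15 erythroid leukaemia markers looked up were measured, among them GATA1 (198 to 246 CPM) and KLF1 (321 to 440 CPM). Of 18 markers of T, B, myeloid, epithelial, stromal, endothelial, liver and natural killer cells, 10 are in the table. They summed to 67.3 to 102 CPM of library total in sgHDAC7 and 85.7 to 130 CPM in sgNT, mostly PECAM1, CD68 and CD79A, and the T cell markers CD3D, CD3E and CD3G are not analysed here. The share of mitochondrially encoded messengers was 3.46% to 3.79% in the sgHDAC7 libraries and ran from 2.72% (replicate 3) to 3.96% (replicate 1) among the controls. The part of these markers and shares in the results was not tested.

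In 9 of the 10 genes the 3 sgHDAC7 libraries were the lowest, sgNT replicate 1 came next, and sgNT replicates 2 and 3 were the highest. The step from sgNT replicate 1 to the mean of replicates 2 and 3 ran from 1.49-fold in ATF4 to 8.14-fold in CHAC1. The summed level of the 10 genes was 662 to 666 CPM of library total in the sgHDAC7 libraries. It was 769 CPM in sgNT replicate 1, 1990 CPM in sgNT replicate 2 and 2053 CPM in sgNT replicate 3. The sgHDAC7 libraries thus lay close together, and the controls did not. In bulk RNA, fewer cells with a transcript and less of it per cell cannot be told apart. ATF5 was the exception, with its higher levels in sgHDAC7.

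**Figure D1:**
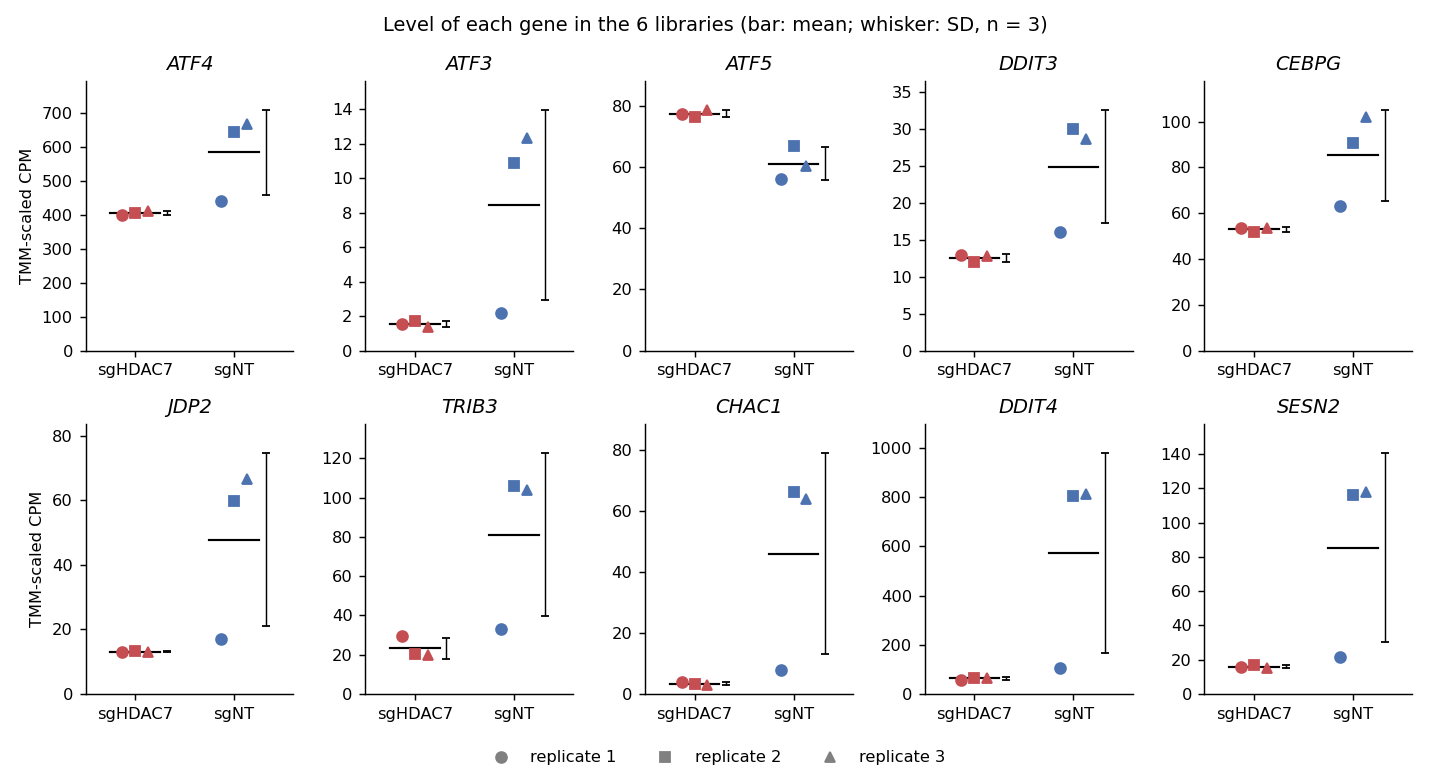
TMM-scaled CPM (y axis, linear, from 0) of each of the 10 genes in the 3 sgHDAC7 (red) and 3 sgNT (blue) libraries, with marker shapes for replicate numbers, a bar for the mean and a whisker for the SD (n = 3). In every panel except ATF5, sgNT replicates 2 and 3 are the highest libraries and sgNT replicate 1 lies between them and the sgHDAC7 libraries.

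Among the transcription factors, ATF4 (22:39519695-39522685, plus strand, GRCh38, GENCODE 29) was the most abundant. It had 401, 405 and 411 CPM in sgHDAC7 replicates 1 to 3, and 441, 645 and 669 CPM in sgNT replicates 1 to 3. The groups did not overlap, but the lowest control lay nearer to the sgHDAC7 libraries than to the other controls. The means were 406 ± 5.20 and 585 ± 125 CPM (SD, n = 3 each), a log2 fold change of sgHDAC7 over sgNT of -0.53 ± 0.13 (SE). ATF4 has 4 numbered pseudogenes in GENCODE 29, of which ATF4P3 and ATF4P4 are in the table with 6 to 45 counts per library, against 4464 to 7173 counts for ATF4.

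CEBPG (19:33373330-33382686, plus strand), a C/EBP factor that pairs with ATF4, followed ATF4 closely. Its levels were 53.6, 51.6 and 53.7 CPM in sgHDAC7 and 63.2, 90.5 and 102 CPM in sgNT. The root mean square (RMS) difference between the centred log2 profiles of ATF4 and CEBPG was 0.0852, the smallest of any pair among the 10 genes. This measure also depends on the size of the changes. By it ATF4 was nearer to ATF5 (0.447), which went the other way, than to TRIB3 (0.693). The log2 fold change of CEBPG was -0.69 ± 0.15.

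DDIT3 (12:57516588-57521737, minus strand) encodes CHOP, a factor that in lasting stress favours cell death. It had 12.96, 12.0 and 12.8 CPM in sgHDAC7, and 16.1, 30.02 and 28.7 CPM in sgNT. Again sgNT replicate 1 was the lowest control, with a log2 fold change over all libraries of -0.99 ± 0.21. The gene span of DDIT3 overlaps those of MARS1 (982 bases) and MBD6 (1028 bases) on the other strand, and whether counting used strand is not given. MARS1, a methionyl-tRNA synthetase, was lower too (log2 -0.64 ± 0.12, edgeR adjusted p = 0.029), while the value for MBD6 was log2 -0.21 ± 0.11 (edgeR adjusted p = 0.346).

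ATF3 and JDP2 are closely related bZIP factors that act largely as repressors on AP-1 and cyclic AMP elements. ATF3 (1:212565334-212620777, plus strand) was the scarcest of the 10 genes, with 19, 20 and 17 counts in sgHDAC7 and 22, 121 and 130 counts in sgNT. As levels these were 1.53, 1.73 and 1.38 CPM against 2.17, 10.9 and 12.4 CPM, so sgNT replicate 1 lay close to the sgHDAC7 libraries and the other controls lay far above. The groups did not overlap in either gene. JDP2 (14:75427716-75474111, plus strand) had 12.9, 13.3 and 12.95 CPM in sgHDAC7 and 17.1, 59.6 and 66.6 CPM in sgNT. The log2 fold changes were -2.45 ± 0.55 for ATF3 and -1.87 ± 0.40 for JDP2.

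ATF5 (19:49928702-49933935, plus strand), a target and close relative of ATF4 that is tied to the mitochondrial stress response, went the other way. Its levels were 77.2, 76.5 and 78.7 CPM in sgHDAC7 and 56.0, 66.8 and 60.4 CPM in sgNT. The groups did not overlap, and the log2 fold change was 0.34 ± 0.08. It was the one gene of the 10 for which the replicate 1 libraries differed most (log2 ratio 0.46, against 0.19 and 0.38 in replicates 2 and 3). Its span overlaps NUP62, a nuclear pore gene on the other strand, by 1062 bases; the value for NUP62 was log2 0.27 ± 0.06 (edgeR adjusted p = 0.0579).

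Of the effectors, DDIT4 (10:72273920-72276036, plus strand), also called REDD1, restrains mTORC1, the kinase complex that drives growth. It had 57.3, 64.8 and 66.2 CPM in sgHDAC7. In sgNT it had 104, 802 and 812 CPM. Replicates 2 and 3 of sgNT averaged 7.73 times replicate 1 of the same group, whereas in sgHDAC7 the same ratio was 1.14. The log2 fold change over all libraries was -3.19 ± 0.60. The span of DDIT4-AS1 overlaps DDIT4 by 1066 bases, and that RNA is not analysed here.

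CHAC1 (15:40952962-40956519, plus strand) breaks down glutathione and is among the most inducible genes of this response. It had 3.78, 3.37 and 2.99 CPM in sgHDAC7, from 37 to 47 counts. In sgNT it had 8.005, 66.3 and 63.9 CPM, from 81, 738 and 673 counts. Its ratio of replicates 2 and 3 to replicate 1 was 8.14 in sgNT, the widest of the 10 genes, and 0.84 in sgHDAC7. The log2 fold change was -3.77 ± 0.67.

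SESN2 (1:28259527-28282491, plus strand), sestrin 2, is a leucine sensor that also holds back mTORC1. Its levels were 15.7, 16.7 and 15.1 CPM in sgHDAC7 and 21.6, 116 and 118 CPM in sgNT (log2 fold change -2.43 ± 0.50). TRIB3 (20:362835-397559, plus strand), a pseudokinase that feeds back on ATF4 and CHOP, had 29.3, 20.2 and 20.1 CPM in sgHDAC7 and 33.1, 106 and 104 CPM in sgNT (-1.81 ± 0.37). TRIB3 was the one gene with a visible step inside sgHDAC7, where replicate 1 stood above replicates 2 and 3. For the replicate 1 pair, 29.3 against 33.1 CPM, TRIB3 was nearly level between the guides.

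Scaled by length, the order of the genes differed between the libraries. Levels per kb of merged GENCODE 29 exon, which may not be the authors' gene models, put ATF4 first in sgHDAC7 (161 ± 2.07 CPM per kb), far above DDIT4 (30.5 ± 2.32) and ATF5 (26.2 ± 0.376). Then came CEBPG (12.0 ± 0.265), DDIT3 (9.63 ± 0.393), TRIB3 (6.75 ± 1.54), SESN2 (4.59 ± 0.247), JDP2 (2.09 ± 0.0354), CHAC1 (1.64 ± 0.192) and ATF3 (0.382 ± 0.0435) CPM per kb. No neighbours in that order overlapped over the 3 libraries. In sgNT replicates 2 and 3 DDIT4 came first, with 390 and 394 CPM per kb, ahead of ATF4 with 256 and 266. SESN2 (33.7 and 34.2), CHAC1 (32.2 and 31.1) and TRIB3 (30.9 and 30.3) followed, and then DDIT3, CEBPG and ATF5, whose levels of 20.5 to 23.1 CPM per kb overlapped. CHAC1 thus stood above ATF3 alone in sgHDAC7, and above 6 of the 10 genes in those controls.

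Read against all genes, 8 of the 10 (all but ATF4 and ATF5) were lower past the threshold of edgeR's quasi-likelihood test with group as the single term, where 1.7% of 13841 genes were lower, 1.16% higher and 2.86% called in either direction. Nothing is read from that count, since the comparison was known when the genes were chosen. Their median log2 fold change was -1.84, against -0.00 for all genes (range of the 10 from -3.77 to 0.34). In 9 of the 10 all sgHDAC7 libraries lay below all sgNT libraries, as in 12.2% of all genes, and in ATF5 above, as in 13%. The calls did not survive leaving out most single libraries, while the fold changes stayed of similar size. With sgHDAC7 replicate 1, 2 or 3, or sgNT replicate 2 or 3 left out, 0 of the 10 passed the edgeR test after adjustment, though all 10 had an unadjusted p under 0.05, and without sgNT replicate 1 all 10 passed. Over these 5 omissions the log2 fold change of CHAC1 ran from -3.87 to -3.41 (-4.26 without sgNT replicate 1) and that of SESN2 from -2.48 to -2.13 (-2.89). The count over all genes fell to between 27 and 228 in the same 5 fits. The limma-trend fit called 1 of the 10, CHAC1, and DESeq2 called 10.

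In 9 of the 10 genes, all but ATF5, the difference between the guides was smaller in replicate 1 than in replicates 2 and 3. For the pair numbered 1 these log2 ratios spanned -0.99 (CHAC1) to 0.46 (ATF5), with a median of -0.35 against -0.00 for all genes, and 0 of the 10 were under -1. Averaged over the pairs numbered 2 and 3 they ran from -4.16 (CHAC1) to 0.29 (ATF5), with a median of -2.29, and 7 of the 10 were under -1, as were 1.03% of all genes. In linear terms CHAC1 in sgNT was 2.12 times its sgHDAC7 level in replicate 1 and 20.5 times in replicates 2 and 3. For DDIT4 these values were 1.82 and 12.3, and for TRIB3 1.13 and 5.22.

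**Figure D2:**
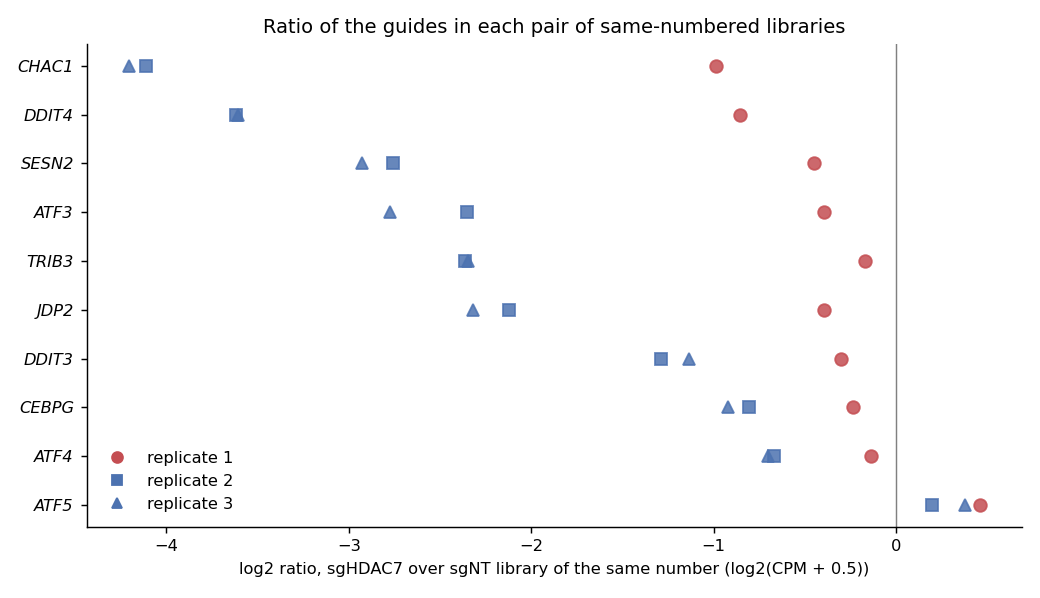
Log2 ratio of sgHDAC7 over sgNT (x axis, on log2(CPM + 0.5)) for each gene (y axis) in each pair of same-numbered libraries, with replicate 1 in red and replicates 2 and 3 in blue. The replicate 1 points run from -0.99 to 0.46, while those of replicates 2 and 3 reach -4.20 in CHAC1 and lie to the left of the replicate 1 point in all 10 genes.

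The libraries of the controls were the uneven ones. Within sgHDAC7, the highest library of a gene was 1.03 to 1.46 times the lowest (median 1.10 over the 10 genes, 1.18 over all genes tested). Within sgNT it was 1.19 to 8.29 times the lowest (median 3.55, against 1.22 over all genes). In 6 of the 10 genes (ATF3, JDP2, TRIB3, CHAC1, DDIT4 and SESN2) sgNT replicates 2 and 3 were both at least 2-fold above each of the other 4 libraries, which held for 36 of the 13841 genes tested (0.26%). In 9 of the 10 these 2 libraries were the highest, as in 15.2% of all genes.

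An edgeR fit with a term for the interaction of guide and replicate 1 called 9 of the 10 genes (all but ATF5), each with a less negative difference in replicate 1, where 3.07% of all genes were called in that direction, 1.55% in the other and 4.62% in either. DESeq2 called 6 of the 10 in the same model. Nothing is read from these counts, since replicate 1 was known from earlier results to stand apart. With 1 replicate 1 library per group, this fit takes its spread from replicates 2 and 3 alone and cannot show how replicate 1 cultures vary. With a common term for replicate 1, which assumes the same guide difference in all replicates, edgeR called 9 of the 10 lower and ATF5 higher, where 6.81% of all genes were lower, 5.78% higher and 12.6% called in either direction. On replicates 2 and 3 alone the counts were the same, 9 lower and 1 higher, where 10.9% and 9.72% of all genes were called, 20.6% together.

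Genes upstream of ATF4 were counted next. The list of 18 genes of the eIF2 arm held kinases, phosphatase subunits, eIF2 and eIF2B, and also GCN1, IMPACT, DELE1 and OMA1. Among these 18 genes 1 passed, where 2.86% of all genes were called, and the median log2 fold change was 0.03. It was EIF2S2, the beta subunit of eIF2, which fell (log2 -0.45 ± 0.09, edgeR adjusted p = 0.0399). With the replicate 1 term 1 was higher and 3 lower, where 12.6% of all genes were called in either direction. On replicates 2 and 3 alone 3 were higher and 4 lower, where 20.6% of all genes were called. The kinases EIF2AK1 (haem), EIF2AK2 (double-stranded RNA), EIF2AK3 (unfolded protein) and EIF2AK4 (amino acids) differed by log2 0.18 ± 0.09, 0.05 ± 0.07, 0.10 ± 0.16 and -0.03 ± 0.07. Their adjusted p in edgeR was 0.284, 0.763, 0.788 and 0.883, and they were singled out after their values were seen. These are messenger levels and do not measure kinase activity. PPP1R15A, the inducible phosphatase subunit GADD34 and itself an ATF4 target, had 213, 229 and 234 CPM in sgHDAC7 and 147, 198 and 208 CPM in sgNT. Its groups did not overlap and its value was log2 0.28 ± 0.12 (edgeR adjusted p = 0.217), so, like ATF5, it had its higher levels in sgHDAC7. Its interaction with replicate 1 was called (edgeR adjusted p = 0.0364), the sole one of the 18, where 4.62% of all genes were called.

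Of 37 other bZIP factors tested, 3 fell and 1 rose, where 2.86% of all genes were called, with a median log2 fold change of -0.03. With the replicate 1 term 9 were lower and 4 higher, where 12.6% of all genes were called in either direction. On replicates 2 and 3 alone 12 were lower and 6 higher, where 20.6% of all genes were called. XBP1, which carries the IRE1 signal when unfolded protein builds up, fell to 99.4 CPM from 160 CPM in the controls (edgeR adjusted p = 0.00275). FOSL2 and MAFF fell by 1.49 ± 0.28 and 1.41 ± 0.20 on the log2 scale (edgeR adjusted p = 0.028 and 0.0105), and MAFG rose (log2 0.31 ± 0.06, edgeR adjusted p = 0.0366). The replicate 1 pair also differed in these genes: FOSL2 had a ratio of -1.39 (log2) there against -1.51 for the other libraries, and MAFF had -1.29 against -1.38. The interaction was called in 1 of the 37, where 4.62% of all genes were called. It was CEBPB, a C/EBP factor and ATF4 target. CEBPB had 17.6, 16.1 and 19.6 CPM in sgHDAC7 and 21.4, 43.1 and 47.2 CPM in the controls (log2 -1.07 ± 0.25, edgeR adjusted p = 0.0543).

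Of 7 tested paralogs of the 10 genes, CEBPB among them, 1 rose and 1 fell, where 2.86% of all genes were called. With the replicate 1 term 1 was higher and 3 lower, where 12.6% of all genes were called. TRIB1, a relative of TRIB3 that works in myeloid cells, rose to 16.2 CPM from 6.70 CPM in the controls (log2 1.28 ± 0.21, edgeR adjusted p = 0.02), the opposite direction to TRIB3. For TRIB2 the value was log2 0.19 ± 0.10 (edgeR adjusted p = 0.314). CHAC2, the constitutive relative of CHAC1, had 12.4 to 15.9 CPM in sgHDAC7 and 13.02 to 16.1 CPM in sgNT (log2 0.01 ± 0.15). Of the other sestrins, SESN1 had a value of log2 -0.13 ± 0.10 (edgeR adjusted p = 0.511) and SESN3 fell (log2 -0.40 ± 0.08, edgeR adjusted p = 0.0356) by nearly the same amount in replicate 1 (-0.38) as in replicates 2 and 3 (-0.41). CEBPD had 19.8 to 24.8 CPM in sgHDAC7 and 29.8 to 38.2 CPM in the controls (log2 -0.55 ± 0.13, edgeR adjusted p = 0.0574). CEBPA, CEBPE and DDIT4L were not tested.

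Other genes described as ATF4 targets were counted in the same way. Of 50 tested, 19 fell and 0 rose in the edgeR test with group alone (3 were higher at an unadjusted p under 0.05, and DESeq2 called 0 higher), with a median log2 fold change of -0.67, where 1.7% of all genes were lower. In 28 of the 50 all sgHDAC7 libraries lay below all sgNT libraries, which held for 12.2% of all genes. Higher calls did appear in other fits: 2 beside 40 lower with the replicate 1 term, 3 beside 42 lower on replicates 2 and 3 alone, 2 without sgNT replicate 1, and 1 with the replicate block. Of all genes, 6.81% were lower and 5.78% higher with the replicate 1 term. On replicates 2 and 3 alone 10.9% of all genes were lower and 9.72% higher. The list of targets was drawn up with earlier results of these data known and is no independent evidence. VEGFA, an angiogenic growth factor, had 30.8, 28.1 and 29.6 CPM in sgHDAC7 and 58.9, 99.8 and 97.4 CPM in sgNT (edgeR adjusted p = 0.00453). SLC7A11, the cystine transporter, had 27.2, 23.05 and 21.6 CPM against 50.1, 134 and 135 CPM (edgeR adjusted p = 0.0139). SLC7A5 and SLC38A2, transporters of large neutral and small neutral amino acids, fell by 0.87 ± 0.15 and 1.09 ± 0.19 on the log2 scale (edgeR adjusted p = 0.0226 and 0.0249). Over the 50 genes the replicate 1 pair had a median log2 ratio of -0.16 and the later-numbered pairs one of -0.86, and the latter was the lower value in 47 of them, as in 49.3% of all genes. In 45 of the 50, sgNT replicates 2 and 3 were the 2 highest libraries, which held for 15.2% of all genes. Without sgHDAC7 replicate 2 or 3 the count of calls was 0 (39 and 37 at an unadjusted p under 0.05), without sgHDAC7 replicate 1 it was 3, without sgNT replicate 2 or 3 it was 1, and without sgNT replicate 1 it was 44.

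**Figure D3:**
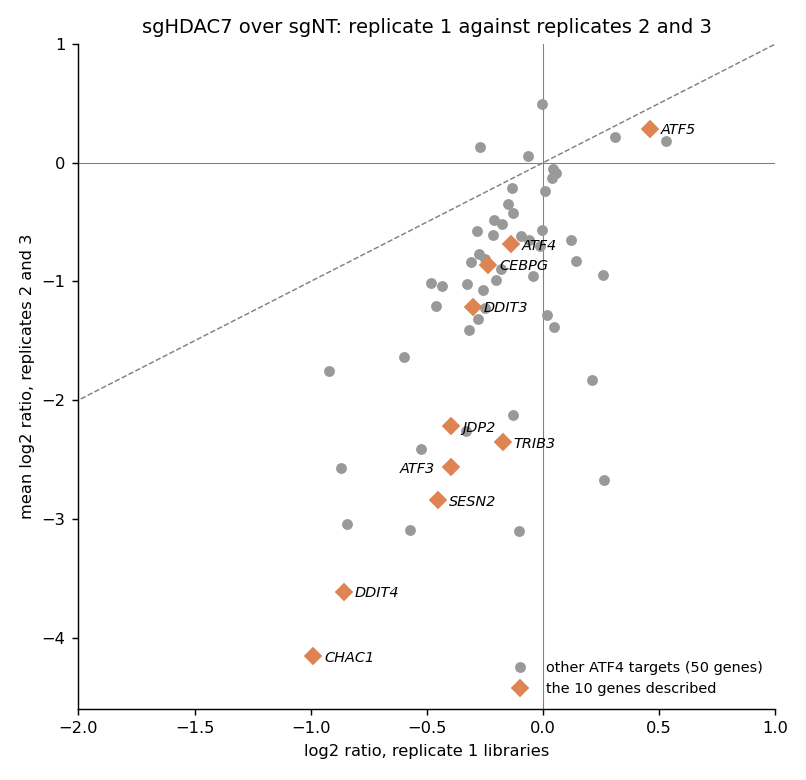
Log2 ratio of sgHDAC7 over sgNT in the replicate 1 libraries (x axis) against the mean of replicates 2 and 3 (y axis) for the 10 genes (orange) and 50 other ATF4 targets (grey), with a dashed line of equality. All 10 genes and 47 of the 50 others lie below the line.

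The genes most alike over the 6 libraries were looked up for each of the 10, as the 3 tested genes with the smallest RMS difference of centred log2(CPM + 0.5). SESN2 and ATF3 were each other's nearest gene (0.139). JDP2 and TRIB3 both had PSAT1, an enzyme of serine synthesis, as nearest (0.108 and 0.104). CHAC1 was nearest to DDIT4 (0.252), and DDIT4 to INHBE (0.235), the beta E chain of inhibin, with 1.53 to 2.35 CPM in sgHDAC7 and 2.17, 30.02 and 31.4 CPM in sgNT. Only 1 gene lay within 0.25 of DDIT4 and 0 of CHAC1, so few genes matched them.

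DDIT3 was nearest to the tRNA synthetases WARS1 and CARS1 (0.0601 and 0.0607). ATF4 was nearest to NCOA7 and HSPA13 (0.0398 and 0.0409), and CEBPG to NCOA7 and MARS1 (0.0523 and 0.0544). For ATF4, CEBPG and ATF5 this likeness is not specific, since 1738, 602 and 7235 genes lay within 0.25 of them. The likeness of DDIT3 was shared by many genes too, with 127 within 0.25. Over all 10 genes, 22 distinct genes were named in this way: 5 were among the 10, 8 were on the list of other ATF4 targets and 9 on neither. The 10 genes and the 50 other targets are a small part of the 13841 genes tested. Both sets were chosen with earlier results of these data known, so nothing is read from these counts. The 6 libraries are shared by all these comparisons.

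**Figure D4:**
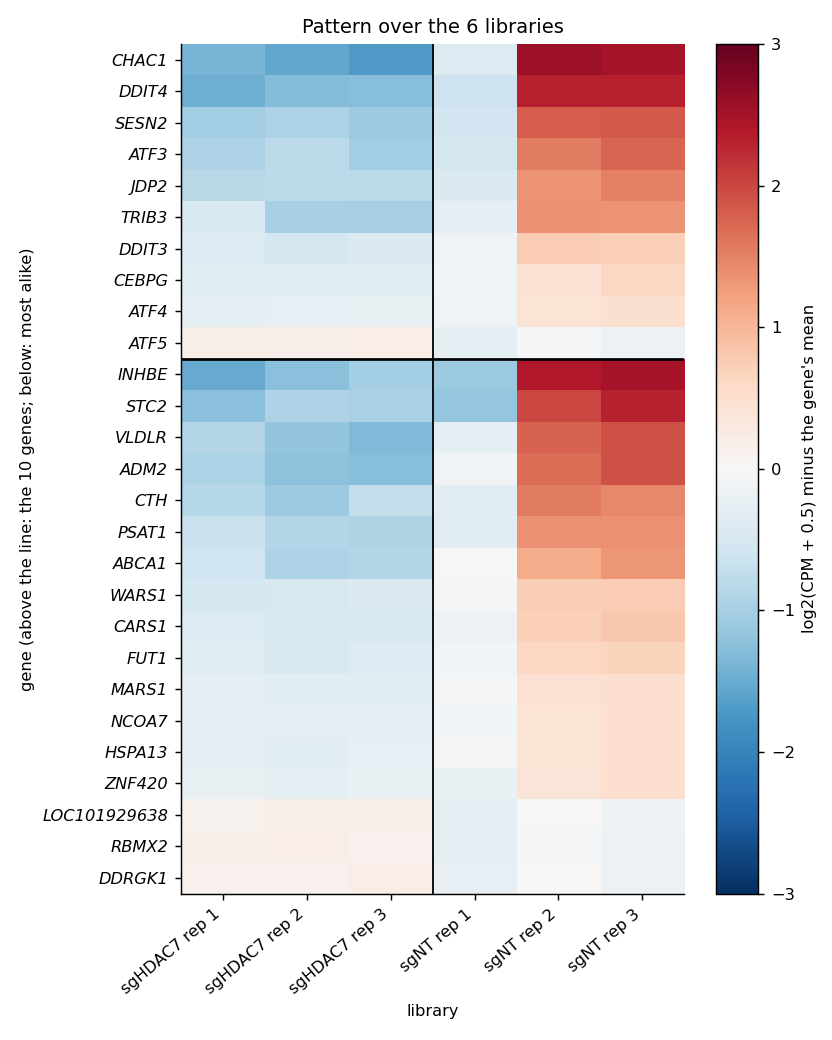
Centred log2(CPM + 0.5) of the 10 genes (above the line) and the 17 genes most like them (below), by library, with red above and blue below each gene's mean. The colour is red in sgNT replicates 2 and 3 and pale to blue in sgNT replicate 1, except in ATF5 and the 3 genes most like it, where the sgHDAC7 libraries are the higher ones.

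DDIT4 and SESN2 both act on mTORC1, so 37 other genes of that switch were looked at. Of these, 1 passed the edgeR test with group alone, where 2.86% of all genes were called, with a median log2 fold change of 0.03. FNIP2, a partner of folliculin in sensing amino acids at the lysosome, rose to 69.1 CPM from 43.4 CPM in the controls (log2 0.67 ± 0.10, edgeR adjusted p = 0.0127). With the replicate 1 term, where 12.6% of all genes were called, 5 were higher and 2 lower. Among the latter was EIF4EBP1, a translation repressor and ATF4 target. It was the sole gene of the 37 with a called interaction, where 4.62% of all genes were called.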

How the data were processed

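RNA from 6 F36P libraries (3 sgHDAC7, 3 sgNT) was sequenced. The deposited table gives raw counts per gene, as its whole numbers and unequal library sums show, and the columns headed NC were taken as sgNT. Genome build hg38 and edgeR 3.32.1 are named per the submitters' processing notes, with no stated role. Not given in the sources used here are the annotation, whether strand was used, and which programs aligned and counted the reads. Every sample column was used.

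Genes with a mean of at least 1 CPM were kept, scaled by TMM and tested with edgeR 4.0.16 (quasi-likelihood, group alone, all 6 libraries, R 4.3.3), with Benjamini-Hochberg adjustment over all genes tested and a threshold of 0.05. The SE is the absolute log2 fold change divided by the square root of F. DESeq2 1.42.0 and limma 3.58.1 were alternatives, with a pseudocount of 0.5 on log2 CPM for limma and for log2 ratios of single libraries. Further alternatives were other scalings and filters, a replicate 1 term, a replicate block and leaving out each library. The fits were tested on simulated data. Members and gene lists were chosen with earlier results of these data known. Named genes were all members, HDAC7, all paralogs, up to 4 genes of each other list past the threshold (by smallest adjusted p), markers by level, and the 3 genes most like each member; any others were chosen after their values were seen, among them MBD6, NUP62, PPP1R15A and EIF4EBP1. Gene positions and exon lengths came from GENCODE 29 (GRCh38), and promoter windows from RefSeq (GRCh38.p14), where all 10 members matched. Library totals of 10039693 to 12521195 counts set the precision, and 3 counts were taken as the floor.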

Additional observations from a re-analysis of the deposited data

How the results depend on the processing

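Direction was followed for the 10 genes alone, and none of them changed direction under any alternative run. Of 13841 genes, 396 passed in edgeR with group alone, 718 in DESeq2, 1743 with a replicate 1 term, 2847 on replicates 2 and 3 alone, and 27 to 1588 when single libraries were left out. Of the 10 genes, 8 passed in edgeR, 1 in limma-trend with either pseudocount (0.5 or 2), 10 in DESeq2, and 0 to 10 when single libraries were left out. Of 50 other ATF4 targets, 19 passed in edgeR, 32 in DESeq2, 42 with a replicate 1 term, 45 on replicates 2 and 3 alone, and 0 to 44 when single libraries were left out. The interaction of guide and replicate 1 was called in 639 genes by edgeR and 177 by DESeq2. The cause of these shifts was not tested. Deviations from the group means correlated at 0.30 between the 2 replicate 1 libraries. Those libraries correlated at -0.18 to -0.22 with libraries of another number in the other group. Replicates 2 and 3 correlated at 0.107 and 0.0968 with the same number, and at 0.159 and 0.155 across numbers 2 and 3. Pairing by number is thus not established. With the replicate block 998 genes, all 10 of the 10 genes and 33 of the 50 targets passed. ATF3 in sgHDAC7, at 17 to 20 counts, is the value most limited by depth.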

Other observations

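Lists for other stimuli that share genes with the ATF4 response were also counted, with edgeR and group alone, where 2.86% of all genes passed, and with the replicate 1 term, where 12.6% passed. The genes followed here, DDIT4, SESN2 and ATF3 among them, were not on these lists as counted. The counts and medians below therefore leave out their differences, and do not show how each list would read with them. Of 21 p53 targets tested 1 passed, CCNG1, cyclin G1, which fell by 0.57 ± 0.09 on the log2 scale (edgeR adjusted p = 0.0207), and the list's median log2 fold change was -0.12; with the replicate 1 term 5 were lower and 1 higher. Of 20 hypoxia targets 1 passed, VEGFA, which fell and is also on the list of ATF4 targets (median -0.08), and with the replicate 1 term 3 were lower. Of 11 glucocorticoid targets 2 passed and both rose: MT2A, a metallothionein (log2 0.57 ± 0.12, edgeR adjusted p = 0.0406), and ZBTB16, a zinc finger factor (log2 0.54 ± 0.12, edgeR adjusted p = 0.0455), with a median of -0.01; with the replicate 1 term 2 were higher and 1 lower. Of 13 immediate early genes 1 passed, ZFP36, which destabilises messengers and rose (log2 0.80 ± 0.13, edgeR adjusted p = 0.018), with a median of 0.32. With the replicate 1 term 5 immediate early genes were higher and 1 lower. Among the former were FOS and FOSB, chosen after their values were seen. FOS had 0.483, 12.3 and 15.5 CPM in sgHDAC7 and 0.297, 4.94 and 3.52 CPM in the controls (log2 1.66, edgeR adjusted p = 0.00101 with that term and 0.356 with group alone). FOSB had 1.45, 23.3 and 25.6 CPM in sgHDAC7 and 0.988, 4.40 and 4.75 CPM in the controls (log2 2.24, edgeR adjusted p = 9.89e-05 with that term and 0.164 with group alone). In both genes replicate 1 of each group was far below replicates 2 and 3. The median over all genes tested was -0.00. The interaction of guide and replicate 1 was called in some of these genes too. Of the 21 p53 targets, 4 had a higher ratio of sgHDAC7 over sgNT in replicate 1 and 1 a lower one. The 4 were BBC3, GDF15, TP53INP1 and TNFRSF10B, named after their values were seen. These counts were 2 and 1 of 20 hypoxia targets, 2 and 0 of 11 glucocorticoid targets, and 0 and 0 of 13 immediate early genes. Of all genes, 3.07% and 1.55% were called in these directions.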
